A study of Mus musculus with 4 samples.

Results

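Bone morphogenetic proteins (BMPs) and the secreted proteins that block them were followed in stromal cells taken from 2 places in mouse bone marrow. The set holds 9 genes, the ligands Bmp2, Bmp3, Bmp4, Bmp5, Bmp6 and Bmp7 and the antagonists Nog, Chrd and Grem1, and a probe set was taken where its annotation gave exactly 1 of these symbols. This found 12 probe sets for 8 genes, 9 for 5 ligands and 3 for the 3 antagonists, out of 45037 probe sets and 18193 genes in all, while Bmp3 was not analysed here. Bmp5 and Bmp7 had 3 probe sets each and every other gene had 1, so for most members nothing on the array checks the reading of a single probe set.

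The cells came from the marrow of adult NOD/SCID mice (strain NOD.CB17-Prkdcscid/J), described as recipients, and what they received is not given in the sources used here. All carry the scid mutation of Prkdc and so lack functional B and T cells. Every sample was sorted for CD51, an integrin chain, and against CD45, CD31, Sca1 and blood lineage antigens, a sort that the submitters call osteoblasts. The groups were the trabecular bone area (2 arrays) and the long bone area (2 arrays), labelled as biological replicates. Whether mice were pooled is not given, so the p-values below measure the spread between these arrays only.

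BMPs are secreted as dimers that bind paired type I and type II receptor kinases, and the receptors phosphorylate Smad1, Smad5 and Smad9, which enter the nucleus with Smad4 and switch on genes such as the Id family. Noggin, chordin and gremlin bind the ligands outside the cell and keep them off the receptors. BMPs were named for making bone at ectopic sites, and in the skeleton they drive cartilage and bone formation, with Bmp2 needed for fracture repair.

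Bmp2 had the largest difference between the areas. It was lower in both trabecular samples than in both long bone samples, 3.44-fold on average. Bmp5 and Bmp7 also had no overlap between the areas but differed by less, 1.62-fold and 1.20-fold lower in the trabecular area. Bmp4, Bmp6 and the antagonist Grem1 overlapped between the areas. They were high on long bone array 2, not on long bone array 1, and the area difference was near 0 without array 2. That array was also the highest for Bmp2 and Bmp5, by 1.11 and 0.86 over the next, and the excess of Bmp4 was 0.91, so it was not particular to the members that overlapped. The antagonists Nog and Chrd spanned only 0.35 and 0.31 over the 4 arrays on the log2 scale. No member passed the test across all genes.

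**Figure D1:**
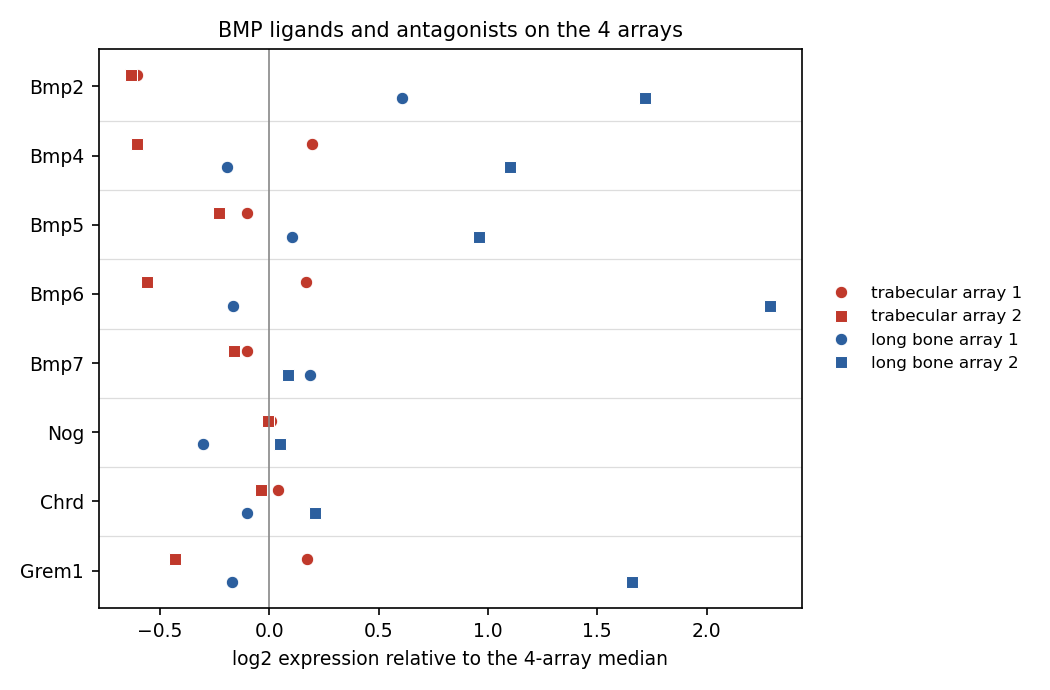
Log2 expression of each BMP ligand and antagonist relative to its 4-array median (x axis), with trabecular arrays drawn above long bone arrays in each row. Bmp2 lies at -0.61 and -0.64 on the trabecular arrays and at 0.61 and 1.72 on the long bone arrays, while Bmp4, Bmp6 and Grem1 are above 1 on long bone array 2 and below 0 on long bone array 1.

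The deposited values are log2 expression after subtraction of each probe set's median over the 4 arrays, so a value is relative to that median and carries no level. Long bone array 2 stood apart from the other arrays. The SD over all probe sets was 0.48 on it and 0.27 to 0.31 on the others, and 2493 probe sets were 2-fold or more away from their own median there, against 383 to 848 elsewhere. The 5' minus 3' reading of the Gapdh control, which drops when RNA is broken or copied short, was -1.16 on that array and between -0.09 and 0.31 on the others, whereas that of Actb was -0.04 there and between -0.07 and 0.44 on the others. Differences that turn or change by over 1.5 times without this array are given both ways below, and the part that RNA quality has in them was not tested. A coarse level can still be read from the number step of the stored values: 33.7% of the 41631 probe sets that could be read matched RMA levels of 8 and above, 62.4% that of 4 to 8 and 3.87% that of 2 to 4. The reading is coarse, and a single probe set can be misread.

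Markers of the labelled cell type were read, though a difference between areas cannot show what the sorted cells are. All 9 measured osteoblast genes were lower in both trabecular samples than in both long bone samples, where 21.4% of all genes were. Their median log2 difference was -0.96 (-1.42 without long bone array 2). Of these 9 genes 3 had a probe set at levels of 8 and above, among them Col1a1 and Alpl, and so did 7 of 13 blood cell genes, among them Ptprc, which encodes the CD45 that the sort excluded. Counted by probe sets that could be read, 33.3% of the osteoblast and 57.1% of the blood cell ones were at these levels, against 33.7% of all. The sort antigen gene Itgav (CD51) differed by -0.13 (adjusted p = 0.634, limma). Bglap, Bglap2, Runx2 and Spp1, also known from osteoblasts, were not analysed here.

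Bmp2, a ligand that starts cartilage and bone formation, read -0.61 and -0.64 on trabecular arrays 1 and 2, against 0.61 and 1.72 on long bone arrays 1 and 2. The trabecular pair agreed closely, the long bone pair differed by 1.11, and the gap between the nearest arrays of the areas was 1.21. The log2 difference was -1.78 (SE 0.39, 95% interval -2.82 to -0.75), with trabecular samples at -0.62 ± 0.02 and long bone samples at 1.16 ± 0.79 (SD, n = 2 each). The unadjusted p was 0.00768 and the adjusted p 0.243 by limma, so Bmp2 did not pass. Only 0.451% of all genes had a lower difference. Without long bone array 2 the difference was -1.23. Its probe set was read at levels of 8 and above. In bulk samples like these, fewer cells of a type and less RNA per cell cannot be told apart.

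Bmp5, a ligand of the developing skeleton whose loss gives the short-ear mouse, averaged -0.10 and -0.23 over its 3 probe sets on the trabecular arrays, against 0.10 and 0.96 on the long bone arrays. The areas did not overlap, but the nearest arrays were only 0.20 apart. The log2 difference was -0.70 (95% interval -1.52 to 0.13, limma adjusted p = 0.365) and -0.27 without long bone array 2. The probe sets gave one direction with unequal sizes. The difference was -0.58 for 1421282_at, -0.28 for 1421283_at and -1.23 for 1455851_at, and without long bone array 2 it was -0.24, -0.20 and -0.37. All 3 were lower in both trabecular samples than in both long bone samples, and the last owed its size to 1.88 on long bone array 2, against 0.15 on long bone array 1. The probe set 1421282_at was read at levels of 8 and above, and the other 2 at 4 to 8.

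Bmp7, also called OP-1 and used clinically to induce bone, averaged -0.10 and -0.16 on the trabecular arrays, against 0.19 and 0.09 on the long bone arrays. This was the only ligand for which long bone array 2 was not the highest array. Its log2 difference was -0.27 (95% interval -0.59 to 0.06, limma adjusted p = 0.373), and -0.32 without long bone array 2. The probe set 1418910_at carried most of it, with -0.26 and -0.21 in the trabecular area, against 0.25 and 0.21 in the long bone area. That probe set differed by -0.47 (95% interval -0.80 to -0.13, limma adjusted p = 0.241), 1435479_at by -0.26, and 1432410_a_at, whose areas overlapped, by -0.08 (-0.15 without long bone array 2). All 3 were read at levels of 4 to 8.

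Bmp4, a ligand close to Bmp2 in sequence, read 0.19 and -0.61 on the trabecular arrays, against -0.19 and 1.10 on the long bone arrays. Each area thus held a value above and a value below the 4-array median. The log2 difference was -0.66 (95% interval -2.04 to 0.72, limma adjusted p = 0.565), and -0.013 without long bone array 2.

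Bmp6, a ligand that in the liver also controls iron through hepcidin, read 0.17 and -0.56 on the trabecular arrays, against -0.17 and 2.29 on the long bone arrays. Long bone array 2 lay 2.12 above the next array, an excess that 0.126% of all genes surpassed. The log2 difference of -1.26 (95% interval -3.55 to 1.04, limma adjusted p = 0.512) became -0.028 without that array.

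**Figure D2:**
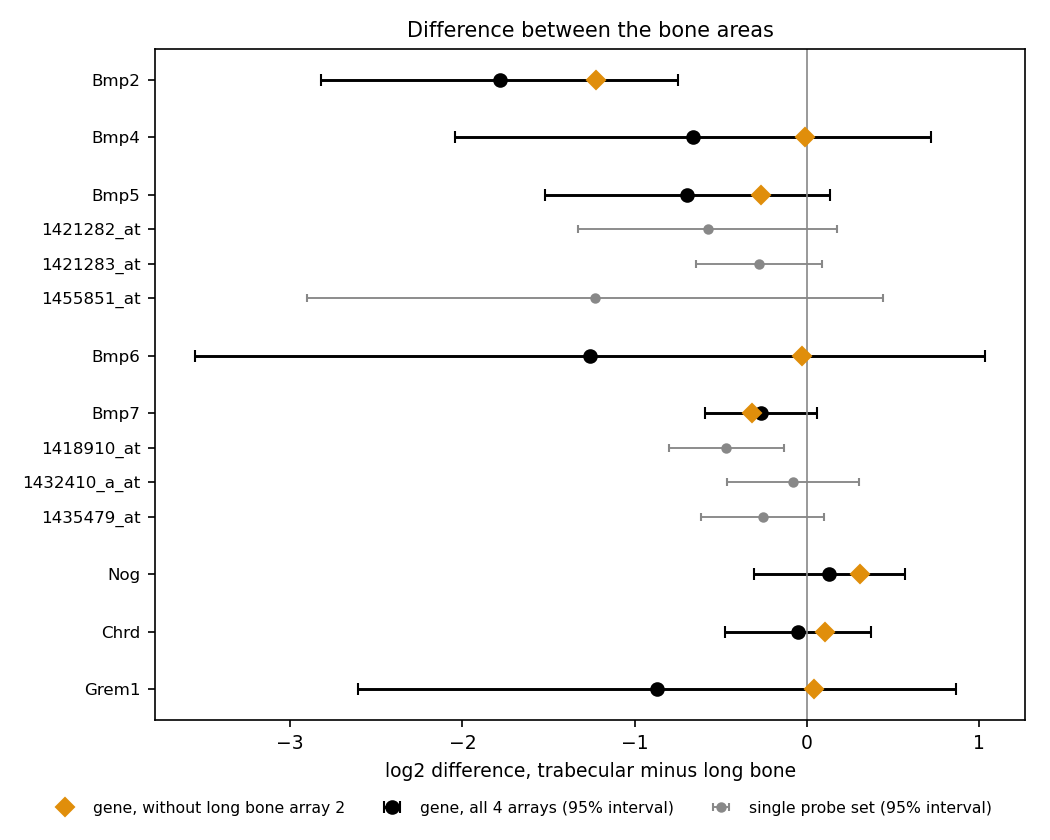
Log2 difference between the areas, trabecular minus long bone (x axis), for each gene over 4 arrays with its 95% interval from limma, for the single probe sets of Bmp5 and Bmp7, and for each gene without long bone array 2 (diamonds). Bmp2 keeps a difference of -1.23 without that array, while Bmp4, Bmp6 and Grem1 lie between -0.028 and 0.043.

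Among the antagonists, gremlin (Grem1), which blocks Bmp2 and Bmp4, read 0.17 and -0.43 on the trabecular arrays, against -0.17 and 1.66 on the long bone arrays. Long bone array 2 again stood alone, 1.48 above the next array. The log2 difference was -0.87 (95% interval -2.61 to 0.86, limma adjusted p = 0.544), and 0.043 without that array. The probe sets of Grem1, Bmp4 and Bmp6 were each read at levels of 4 to 8.

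Noggin (Nog), a high-affinity BMP inhibitor needed for joints to form, read 0.01 and -0.01 on the trabecular arrays, against -0.31 and 0.05 on the long bone arrays. It was the only member with a positive difference, 0.13 (95% interval -0.31 to 0.57, limma adjusted p = 0.729), which was -0.047 without long bone array 1. Leaving out long bone array 2 in its place gave 0.31. Chordin (Chrd), which holds BMPs until it is cleaved by the protease encoded by Bmp1, read 0.04 and -0.04 on the trabecular arrays, against -0.10 and 0.21 on the long bone arrays. Its difference was -0.053 (95% interval -0.48 to 0.37, limma adjusted p = 0.894) and 0.10 without long bone array 2. The intervals of both include a difference of the size that Bmp7 had. The probe set of Chrd was read at levels of 8 and above, and that of Nog could not be read.

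Counted together, 0 of the 8 members had an adjusted p under 0.05 by limma, where 0% of 18193 genes did, and the lowest adjusted p of any gene was 0.0991. At an unadjusted p under 0.05 there was 1 member, Bmp2, lower in the trabecular area, as were 4.62% of all genes. The areas did not overlap for 3 of 8 members, Bmp2, Bmp5 and Bmp7, each lower in the trabecular area, where 21.4% of all genes were lower with no overlap. At least 2-fold lower with no overlap was 1 of 8, Bmp2, where 1.17% of all genes were. In all, 7 of 8 members had a negative difference, against 45.4% of genes, and the median was -0.68, against 0.029 over all genes. With 2 arrays against 2, an exact permutation test cannot go below p = 0.333 (two-sided).

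These counts leaned on long bone array 2. It was the highest array for 7 of 8 members, against 35.2% of genes, and at least 1 above every other array for 3 of 8, Bmp2, Bmp6 and Grem1, against 1.11% of genes. Without it the median of the members was -0.021 (0.047 over all genes), and all 5 ligands but none of the 3 antagonists had a negative difference, against 41.6% of genes. Bmp2, Bmp5 and Bmp7 still had no overlap and lay lower in the trabecular area, where 29.5% of genes did, and Nog and Chrd had no overlap and lay higher, where 44.6% of genes did. Without long bone array 1 the median was -1.21, and Bmp2, Bmp5, Bmp6 and Grem1 passed, each lower (limma adjusted p = 0.0333, 0.0374, 0.0374 and 0.0440), where 3.02% of all genes passed in that direction. In the fit over all probe sets without that array, none of the 12 passed, with a lowest adjusted p of 0.0539 (limma). In both fits the spread comes only from the 2 trabecular arrays, and the single long bone array is assumed to vary like it.

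Markers of reticular stroma and chondrocytes, and those of osteoblasts given above, moved with some of these patterns. Their part in the patterns was not tested. Markers of reticular stroma, the marrow's main source of Cxcl12, had medians of 0.085 and -0.58 on the trabecular arrays, against -0.077 and 1.65 on the long bone arrays. On long bone array 2, 9 of 12 lay at least 1 above every other array, against 1.11% of all genes. Lepr, which marks these cells, read 0.091 and -0.58 in the trabecular area, against -0.069 and 1.63 in the long bone area, the order of arrays that Bmp4, Bmp6 and Grem1 had. Not every gene of the list had that order. Foxc1 and Ebf1 lay lower in the trabecular area without overlap and differed by -1.16 and -0.96 (-0.61 and -0.14 without long bone array 2). Hp went the other way without overlap, by 0.44 (0.17 without that array), and read -0.63 on long bone array 2. The list's median difference was -1.08, and -0.15 without long bone array 2. Chondrocyte genes were high on both long bone arrays, with medians of -0.96 and -1.06 in the trabecular area, against 1.36 and 1.16 in the long bone area. All 18 had a negative difference, against 45.4% of all genes, and 17 of them lay lower without overlap, against 21.4%. Their median was -2.58 (-2.59 without long bone array 2). Comp, a cartilage matrix protein, differed by -5.18, Col11a1 by -4.07 and the joint lubricant Prg4 by -4.41, of which only the last rested on 1 array (-1.54 without long bone array 1, and -7.28 with array 2 left out instead). Tendon, periosteum and fibroblast genes had a median of -0.24 (-0.078 without long bone array 2), with 4 of 9 lower and 2 higher without overlap. Postn differed by -1.01, Pdgfra by -0.96 and Dpt by -0.69, and Pi16 by 0.67 and Mkx by 0.039. Without long bone array 2 Pdgfra, Dpt and Pi16 differed by -0.27, -0.22 and 0.33. Blood cell genes had a median of 0.079, with 1 of 13 lower and 4 higher without overlap. Itgam differed by 1.68, Cd3e and Lyz2 by 0.22 each, and Itga2b by -0.37. Without long bone array 2 Itgam, Lyz2 and Itga2b differed by 0.85, 0.10 and -0.18. By limma 0 of these markers passed, while 14 of the 18 chondrocyte genes had an unadjusted p under 0.05 and were lower, against 4.62% of all genes.

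**Figure D3:**
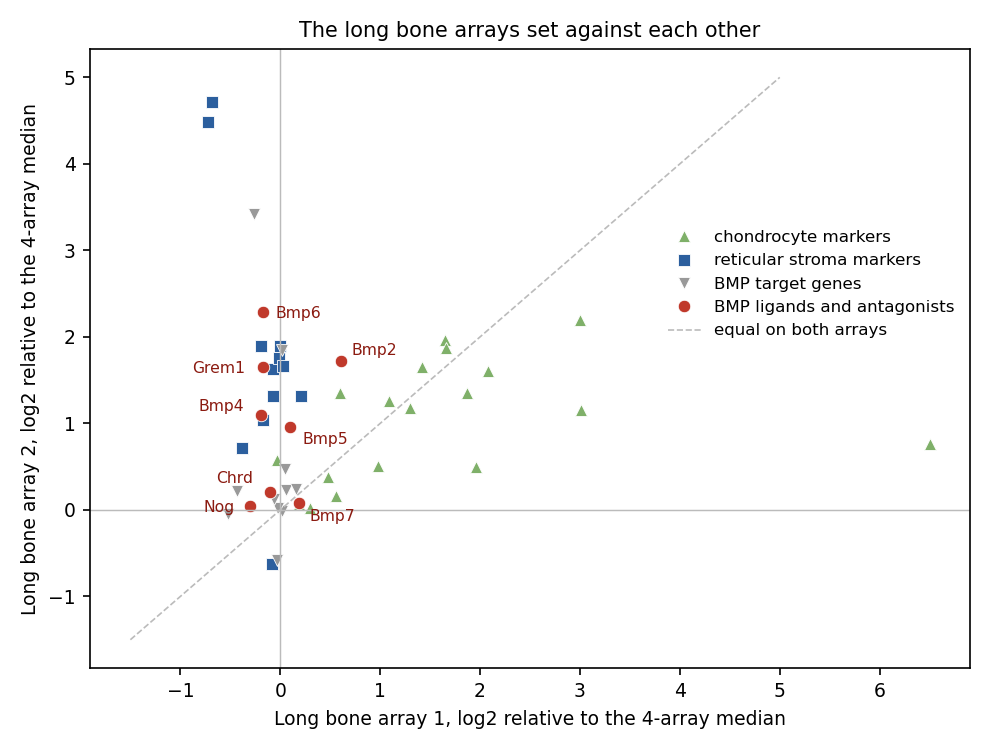
Values on long bone array 1 (x axis) against long bone array 2 (y axis), both as log2 relative to the 4-array median, for BMP ligands and antagonists, reticular stroma and chondrocyte markers and BMP target genes. Bmp4, Bmp6 and Grem1 lie below 0 on array 1 and above 1 on array 2, where most reticular stroma markers lie. Bmp2, Bmp5 and Bmp7 are above 0 on both, as all chondrocyte markers but Col10a1 are. The 9 osteoblast markers, of which only Sp7 is drawn (as a BMP target gene), are above 0 on both as well. Array 2 was at least 1 above every other array for Bmp2 and for 0 of the chondrocyte markers.

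Genes nearest in pattern were found by Euclidean distance over the 4 arrays among all other named genes, for the 5 members that spanned at least 1 on the log2 scale. They are a description of 4 values, and carry no test. Nearest to Grem1 was Chrdl1, a chordin-like protein that also binds BMPs, at a distance of 0.07. It had 0.13 and -0.39 on the trabecular arrays, against -0.17 and 1.69 on the long bone arrays, averaged over 4 probe sets. Next to Grem1 came Col4a2, a basement membrane collagen (0.16), and Cyp1b1, a cytochrome P450 (0.19).

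Nearest to Bmp4 was Gas6 (0.20), a ligand of the Axl family of receptors and a gene on the reticular stroma list, which read 0.18 and -0.42 in the trabecular area, against -0.18 and 1.04 in the long bone area. The complement gene C2 (0.24) and the proteoglycan gene Kera (0.25) followed. Bmp6 lay nearest to Saa3 (0.24), an acute phase protein, Ppbp (0.28), a platelet chemokine, and Gstt1 (0.31). Bmp2 had neighbours with the stepped pattern of both long bone arrays high. These were Rcn3 (0.20), a protein of the secretory pathway, Tjp1 (0.21), which encodes the junction protein ZO-1, and Abi3bp (0.27), a matrix protein. Bmp5 lay nearest to Adcy6 (0.06), Fbln2 (0.08), a fibulin of the matrix, and Fhl2 (0.08).

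**Figure D4:**
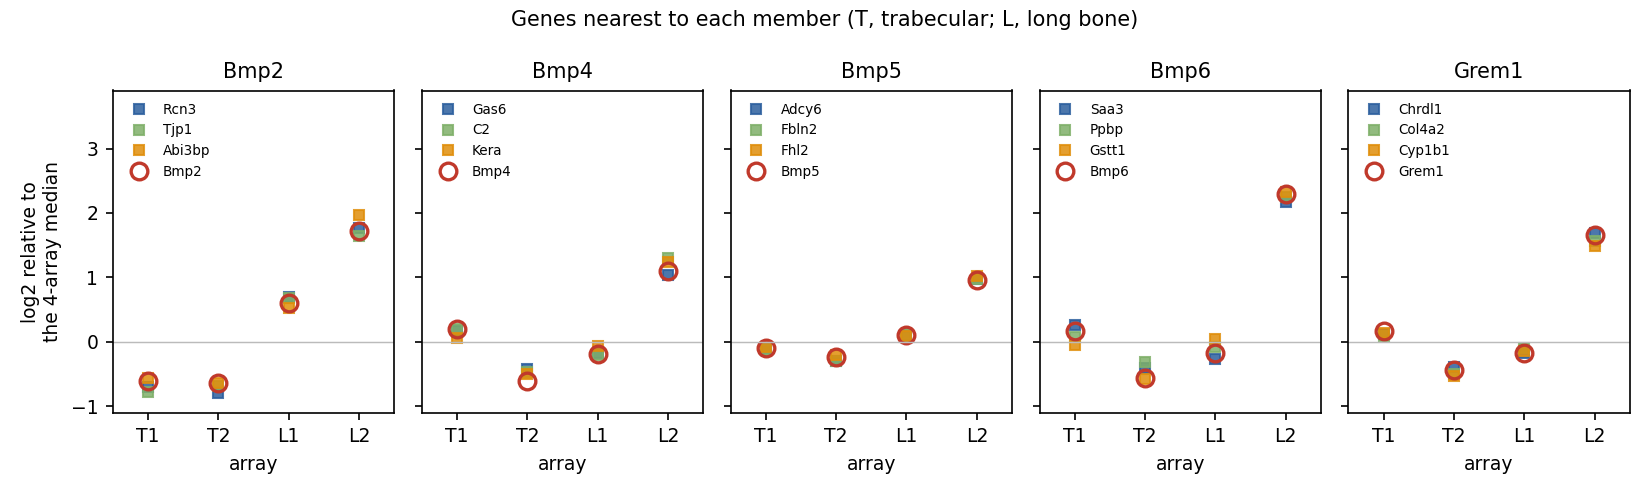
Log2 expression relative to the 4-array median (y axis) on the 4 arrays (x axis, T trabecular and L long bone) for each member that spanned at least 1 (open circles) and its 3 nearest genes (squares). Grem1 and Chrdl1 nearly coincide, at 1.66 and 1.69 on long bone array 2.

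Promoters are shown to set the members beside each other as regulatory sequence. One was at hand for 5 of the 8 members, from RefSeq on GRCm38.p6. All 5 are printed, and the 250 bases before the start of each gene are given 5' to 3' in the direction of transcription. The strings GGCGCC (a GC-rich form bound by BMP Smads), CAGAC (the Smad box) and CCAAT (the CCAAT box) were sought on both strands, and no match overlapped another. The strings were picked after the array values were seen, CAGAC in place of a longer string whose result had been seen. Capitals mark a match.
Grem1, chr2:113758649-113758898, minus strand: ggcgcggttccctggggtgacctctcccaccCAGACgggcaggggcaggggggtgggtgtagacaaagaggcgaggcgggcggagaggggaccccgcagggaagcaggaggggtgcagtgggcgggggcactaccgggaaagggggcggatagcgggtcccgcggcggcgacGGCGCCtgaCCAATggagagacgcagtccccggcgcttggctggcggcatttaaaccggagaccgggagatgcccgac
Bmp4, chr14:46390670-46390919, minus strand: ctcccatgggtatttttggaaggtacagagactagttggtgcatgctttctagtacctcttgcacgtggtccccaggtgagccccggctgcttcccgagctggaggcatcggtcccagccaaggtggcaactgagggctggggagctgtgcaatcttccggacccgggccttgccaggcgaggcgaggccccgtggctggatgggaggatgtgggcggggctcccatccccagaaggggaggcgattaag
Bmp6, chr13:38345466-38345715, plus strand: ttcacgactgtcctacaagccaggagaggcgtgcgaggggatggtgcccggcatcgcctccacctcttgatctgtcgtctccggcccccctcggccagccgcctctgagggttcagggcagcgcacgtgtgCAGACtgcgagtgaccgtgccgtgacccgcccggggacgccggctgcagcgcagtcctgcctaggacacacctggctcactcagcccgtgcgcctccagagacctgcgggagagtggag
Bmp5, chr9:75775115-75775364, plus strand: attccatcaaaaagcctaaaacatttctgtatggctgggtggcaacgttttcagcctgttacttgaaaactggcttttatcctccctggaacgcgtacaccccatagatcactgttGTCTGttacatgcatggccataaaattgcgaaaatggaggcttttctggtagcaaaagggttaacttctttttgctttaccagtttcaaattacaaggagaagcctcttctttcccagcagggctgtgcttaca
Chrd, chr16:20732877-20733126, plus strand: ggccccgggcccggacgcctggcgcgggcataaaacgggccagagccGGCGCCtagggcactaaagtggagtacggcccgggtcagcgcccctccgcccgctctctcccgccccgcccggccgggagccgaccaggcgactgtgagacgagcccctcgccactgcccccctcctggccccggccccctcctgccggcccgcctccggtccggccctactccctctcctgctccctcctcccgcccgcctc

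Counted from -1 at the base before the start, the Grem1 window held CAGAC from position -219, GGCGCC from -78 and CCAAT from -69. The Bmp6 window held CAGAC from -119, and that of Bmp4 none of the 3 strings. The Bmp5 window held CAGAC on the other strand, where it reads GTCTG here, from -134, and that of Chrd GGCGCC from -203. Among 32851 promoter windows of the same length, 9.59% held GGCGCC, 42.2% CAGAC and 33.8% CCAAT. G and C made up 72.0% of the Grem1 window, 63.2% of that of Bmp4 and 68.8% of that of Bmp6, with 78.0% for Chrd and 42.8% for Bmp5, and a median of 52.4% over all windows. The excess on long bone array 2 over the next array was 0.17 for Chrd and 0.86 for Bmp5.

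The other genes of the pathway were read from lists by role, 63 genes measured. By limma 0 of them passed, and 6 had an unadjusted p under 0.05, Bmp8a, Bmper, Acvr1 and Sp7 lower and Bmpr1a and Acvrl1 higher in the trabecular area. These 4 lower and 2 higher genes of 63 stand beside 4.62% and 10.8% of all genes. A negative difference was found for 44 of 63, against 45.4% of all genes. Without overlap 18 were lower and 8 higher, against 21.4% and 29.9% of all genes. The counts of each list below are to be read against the same shares. Of 10 other BMP and GDF ligands 8 had a negative difference and 4 lay lower without overlap. The median was -0.11. Bmp8a read -0.19 and -0.32 in the trabecular area, against 0.19 and 0.52 in the long bone area, a difference of -0.61 (limma adjusted p = 0.260). Gdf2 (also called Bmp9) and Gdf11 differed by -0.19 and -0.16, the last being -0.071 without long bone array 2.

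Of 20 genes listed as other antagonists and binding proteins 14 had a negative difference, with a median of -0.15 (-0.0065 without long bone array 2). No overlap was found for 6 of the 20, 4 lower and 2 higher in the trabecular area. The list also counts Inhba, which encodes an activin subunit, and the Nodal inhibitors Lefty1 and Lefty2, so it is not made of BMP antagonists alone. Fstl1, a follistatin-like glycoprotein that binds BMP4, read -0.10 and -1.47 in the trabecular area, against 0.10 and 3.42 in the long bone area. Its difference was -2.54 (95% interval -5.74 to 0.66, limma adjusted p = 0.382), and -0.88 without long bone array 2. Bmper, a chordin-like BMP binding protein, differed by -0.60 and Crim1 by -0.50, and without long bone array 2 by -0.39 and -0.17. The other way, Fstl3, an activin inhibitor, differed by 0.31 and Lefty1 by 0.15. Of the 3 proteases related to chordin cleavage, Bmp1 had no overlap and differed by -0.12.

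The receptors had differences of both signs. Of 11 receptors and co-receptors 7 had a negative and 4 a positive difference, with 3 without overlap in each direction and a median of -0.06 (-0.0019 without long bone array 2). Acvr1 (ALK2), a type I receptor whose activating mutations turn muscle into bone in humans, read -0.27 and -0.62 on the trabecular arrays, against 0.35 and 0.71 on the long bone arrays. It differed by -0.98 (95% interval -1.52 to -0.43, limma adjusted p = 0.240), and -0.80 without long bone array 2. Acvrl1 (ALK1), the type I receptor for BMP9 that endothelial cells carry, read 0.65 and 0.37, against -0.40 and -0.49, a difference of 0.95 (95% interval 0.55 to 1.36, limma adjusted p = 0.240). Bmpr1a (ALK3), a type I receptor for Bmp2 and Bmp4, differed by 0.54 (95% interval 0.21 to 0.86, limma adjusted p = 0.246). The co-receptors Rgmb and Hjv differed by -0.28 and -0.21, and the type II receptor Acvr2b by 0.07. The 10 endothelial markers had a median of 0.0087 (0.046 without long bone array 2), with 5 in each direction. Without overlap 3 were lower and 2 higher, against 21.4% and 29.9% of all genes. Stab2 differed by -0.48 (-0.26 without long bone array 2), Flt1 by -0.36 and Kdr by -0.31. Tie1 differed by 0.56 and Emcn by 0.27. Their part in the difference of Acvrl1 was not tested.

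Of 8 Smads and Smad inhibitors 5 had a negative difference, with a median of -0.06 (0.0019 without long bone array 2). Smad9 and Smad5, which carry the BMP signal, differed by -0.28 and -0.10, and Smurf2, a ubiquitin ligase for receptors and Smads, by 0.23. Smad6, the inhibitory Smad that BMPs induce, was singled out after its values were seen. It read 0.22 and -0.25 in the trabecular area, against -0.22 and 1.37 in the long bone area, a difference of -0.59 that was 0.21 without long bone array 2.

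Of 11 BMP target genes 8 had a negative difference and the median was -0.04, and -0.05 without long bone array 2. The members' medians were -0.68 and -0.021, and the difference between the lists was not tested. The Id genes, which encode inhibitors of helix-loop-helix transcription factors, were split. Id3, also singled out after its values were seen, read 0.27 and -1.0 in the trabecular area, against -0.27 and 3.42 in the long bone area, with a difference of -1.95 that was -0.10 without long bone array 2. Id4 differed by -1.37 and by -0.45 without that array. Id1 read 0.35 and 0.05, against -0.52 and -0.05, a difference of 0.48 (95% interval -0.11 to 1.07, limma adjusted p = 0.374), and Id2 differed by 0.51. Without long bone array 2 these were 0.72 and 0.23. Sp7, a transcription factor that osteoblasts need, and Dlx5, a homeobox gene of bone, differed by -0.38 and -0.36, and by -0.34 and -0.14 without long bone array 2. Runx2 was not analysed here.

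**Figure D5:**
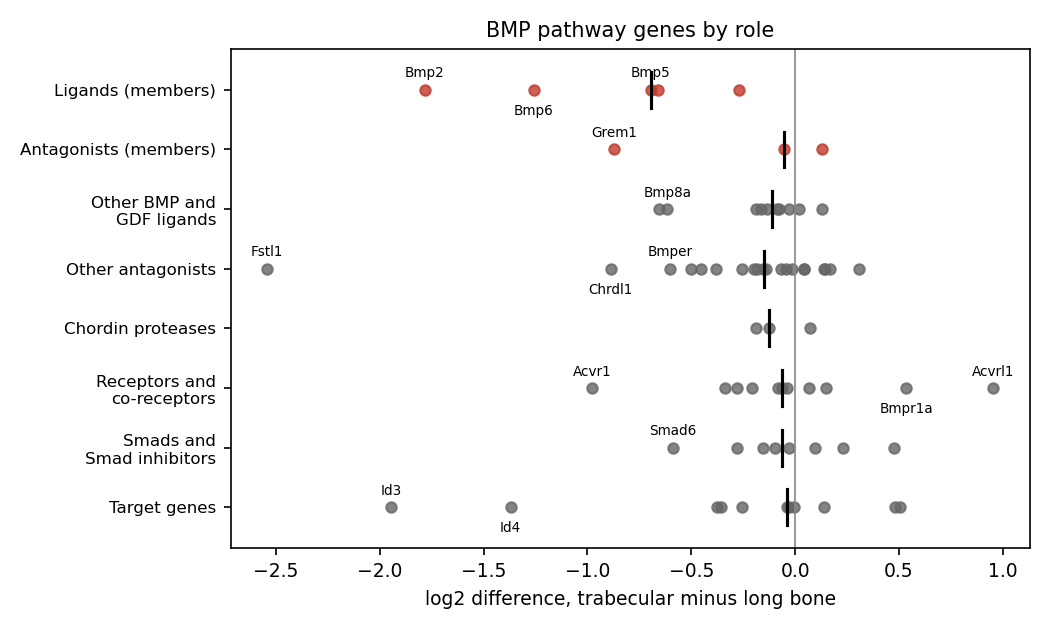
Log2 difference, trabecular minus long bone (x axis), of every measured gene in the BMP pathway lists by role (rows), with the list median as a bar. The ligands among the members have a median of -0.70, the other lists medians between -0.15 and -0.04, and single genes such as Fstl1 and Id3 lie far from them.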

How the data were processed

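RNA of sorted cells was measured on arrays. The series' design text names a human array, whereas the probe set names are those of the Affymetrix mouse array. The deposited values are log2 expression. RMA is named, without a version, in the submitters' processing notes. The values also have a median of 0 over the 4 arrays for each of 45101 probe sets. How they were centred is not given in the sources used here. RMA compresses the folds of dim genes.

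After removal of 64 control probe sets, 34945 of 45037 had 1 gene, 932 several and 9160 none. Gene IDs were matched to RefSeq GRCm38.p6 (34741 probe sets matched, 0 symbols changed). A gene was the mean of the probe sets annotated to it alone. The comparison of areas used limma 3.58.1 (R 4.3.3, lmFit and eBayes, 2 residual and 2.50 prior degrees of freedom for genes), trabecular minus long bone, without the replicate number as a block, over all genes and over all probe sets. P-values were adjusted with Benjamini-Hochberg and called at 0.05. Intervals are 95%. The fit and the level reading were tested on simulated data.

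Same-numbered arrays deviated from their area means with a correlation of -0.18, so the numbers were not taken to pair them. The SD of the difference between replicate arrays was 0.36 in the trabecular and 0.53 in the long bone area, and 107 and 65 probe sets held identical values. Named genes are all members, up to 3 genes without overlap per list and direction, and the 3 nearest genes of each member spanning at least 1. Lepr, Col1a1, Alpl, Ptprc, Smad6 and Id3 were picked after their values were seen, as were the strings sought in promoters, where CAGAC replaced a longer string whose result had been seen. The members, lists and rules were chosen with earlier results of these data known. The number of arrays limits the precision. Alternatives covered normalization, arrays left out, blocks, variance models, probe set choice and fold.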

Additional observations from a re-analysis of the deposited data

How the results depend on the processing

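Of 88 alternative values for the 8 members, 81 kept their direction and stayed short of the threshold, and 4 passed it, all without long bone array 1. The sign turned for 3, each read by its only probe set. The blocks, the variance trend and ordinary t statistics leave the difference itself unchanged, so they could not turn a sign. Nor could the other choices of probe sets for members with a single probe set. With single arrays left out Grem1 ranged from -1.79 to 0.043 and Chrd from -0.21 to 0.10 (both highest without long bone array 2), and Nog from -0.047, without long bone array 1, to 0.31. Leaving out single arrays moved the number of members called between 0 and 4, that of other pathway genes called between 0 and 9, the median of the members between -1.21 and -0.021, and the number at least 2-fold apart without overlap between 1 and 5. The last number was 2 at 1.5-fold and 2 with the probe set of largest range for each gene, Bmp5 being the addition each time. The upper ends of 4, 9 and 5 all came without long bone array 1. Many genes outside the pathway were also called in that fit, and the share of all genes called lower in it is given above. With 1 array left in an area, no overlap is easier to meet. The share of all genes at least 2-fold apart was not counted there. With the replicate block, the crossed replicate block (added after the data were seen, since same-numbered arrays deviated in opposite directions), a variance trend, ordinary t statistics, quantile normalization and either other choice of probe sets, 0 members and 0 other pathway genes were called, so the block changed no call. In the trend fit the covariate is the mean of centred values, not a level. Centring hides which members lie near background.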
